A study of Mus musculus with 35 samples.

Results

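Of the 47404 H3K27Ac peaks called in the wild-type P12 retina, 4029 (8.50%) also had a peak in replicate 2 of the wild-type P14 retina and overlapped no peak in either library of the Brg1-deficient P12 retina. They are called absent peaks here, since no peak was called at these places in Brg1-deficient retinae. An absent call does not mean that acetylation was at 0. The absent peaks were chosen by overlap of at least 1 bp, in the wild-type P12 library, the P14 replicate 2 library and both Brg1-deficient libraries. Their heights in these 4 libraries are therefore given as a description, with no test.

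Histone H3 acetylated at lysine 27 (H3K27Ac) marks promoters and enhancers that are in use. H3K4me3 marks promoters, and H3K27me3 is laid down by Polycomb proteins at genes that are kept silent. Brg1 (Smarca4) is an ATPase of the SWI/SNF (BAF) complexes, which move and evict nucleosomes, and in the retina the weeks after birth are when rod photoreceptors, bipolar cells and Müller glia mature.

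All libraries were made from whole mouse retinae. Wild-type retinae were taken at P0, P12, P14 and P21. Brg1-deficient retinae (genotype BRG1 -/-) were taken at P12 from Chx10-Cre;Brg1 Lox/Lox mice, in which Cre recombinase is driven in retinal progenitor cells. The transgene is expressed as a mosaic, so these retinae also hold cells that kept Brg1, although mice with small eyes and more Cre were preferred. Brg1 itself was measured at P0 with an anti-FLAG antibody, in Brg1-FLAG knock-in mice, which carry a tagged Brg1. Brg1 in the Brg1-deficient retinae was not analysed here. In whole retinae, fewer cells of a type and less acetylation per cell cannot be told apart. By immunostaining at P12, the paper saw no significant change in the share of any cell type it scored. Its expression arrays gave higher progenitor and proliferation signatures at that age. There was 1 wild-type H3K27Ac library at P12, so genotype and library cannot be told apart beyond what the pair of Brg1-deficient libraries and the other ages show.

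The H3K27Ac lists held 47404 peaks in wild type at P12, 40465 and 42887 in the Brg1-deficient retina, 17433 and 50005 at P14, 17588 and 29304 at P0, and 18718 and 45833 at P21. The short lists can hold few weak peaks, which bears on every share below. The Brg1-FLAG list held 50861 peaks, and the H3K4me3 lists between 18534 and 24124. Read depth was unknown from these lists. Positions are on mm9, and as no mm9 annotation was used, peaks are given by position and not by gene.

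In the libraries of the rule, absent peaks were low and short. Their fold enrichment over background in the wild-type P12 library was 4.05 at the median (quartiles 3.59 and 4.56), between 2.168 and 14.1. The 27675 wild-type P12 peaks that were found in P14 replicate 2 and in both Brg1-deficient libraries, called found peaks here, had a median of 6.43. Absent peaks had a median length of 291 bp, against 711 bp for found peaks, and together covered 1.36 Mb. Their median −log10 q-value was 4.73, against 12.6. A further 6331 peaks of P14 were found in 1 Brg1-deficient library, 2119 in replicate 1 and 4212 in replicate 2, and these had a median height of 4.29.

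Absence was concentrated among low peaks. Of the wild-type P12 peaks that were found in P14 replicate 2, 22.9% were absent at heights between 3 and 4, and 19.7% between 4 and 5. The share was 8.69% between 5 and 6 and 1.91% between 6 and 7. At a height of 8 or more, 8 of 10172 peaks (0.0786%) were absent. Only 588 absent peaks reached a height of 5, 88 reached 6 and 23 reached 7. At found peaks the median log2 ratio of Brg1-deficient to wild-type height, without scaling, was 0.19 in replicate 1 and 0.23 in replicate 2. Found peaks were chosen by a call in both Brg1-deficient libraries, so peaks that fell below the call limit are left out. The Brg1-deficient height was also the highest of all overlapping peaks, which can raise the ratio. These ratios therefore do not show whether heights changed.

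**Figure D1:**
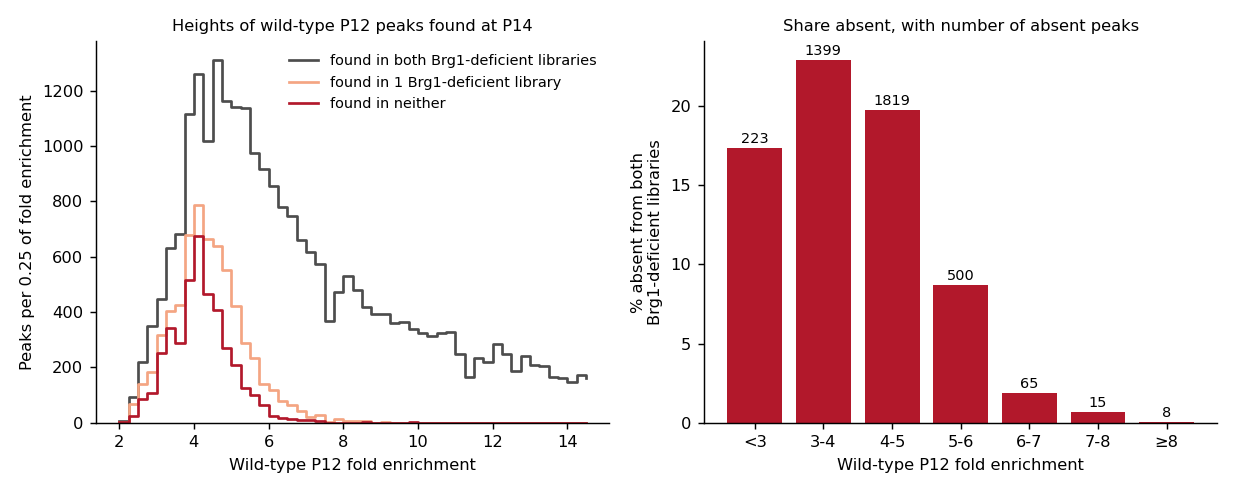
The left panel counts the H3K27Ac peaks of wild-type P12 that P14 replicate 2 also had, by fold enrichment (up to 15), split into those with a peak in both, 1 or neither of the Brg1-deficient libraries. The right panel plots the percentage absent from both Brg1-deficient libraries by height, with the number of absent peaks above each bar; the share falls from 22.9% at heights of 3 to 4 to 0.0786% at 8 or more.

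The number of absent peaks depended on the libraries in the rule. Without Brg1-deficient replicate 1 it was 6148, and without replicate 2 it was 8241. When a peak in P14 replicate 1, the list of 17433 peaks, was required in place of replicate 2, the rule gave 118 peaks. With the lists of wild-type P12, P14 replicate 2 and both Brg1-deficient libraries cut to their 40465 strongest peaks, 2433 peaks were absent. In the opposite direction, 1096 peaks were found in both Brg1-deficient libraries and neither in wild-type P12 nor in P14 replicate 2.

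At the edge of the rule, 29 absent peaks lay within 5 bp of a Brg1-deficient peak, 6 of them touching it, with a median height of 3.96. Just outside it, 32 peaks overlapped a Brg1-deficient peak by at most 5 bp, with a median height of 4.02. The peaks on both sides of the rule had like heights.

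Many absent peaks lay near an H3K27Ac peak that was called in Brg1-deficient retinae. Whether that Brg1-deficient peak was also called in wild type was not checked, and the distance is given for absent peaks alone. The nearest Brg1-deficient H3K27Ac peak was 672 bp away at the median (quartiles 220 and 2854 bp). It was closer than 200 bp for 927 absent peaks (23.0%) and closer than 1000 bp for 2367 (58.7%). Only 298 (7.40%) were 20000 bp or more from any Brg1-deficient peak, and the farthest was at 998002 bp. The median height was 4.02 within 200 bp and 4.10 at 20000 bp or more. Absent peaks near to and far from Brg1-deficient peaks were thus of like height.

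Other marks varied with this distance. H3K4me3 in wild-type P12 was called at 16.1% (13.8 to 18.6%) of absent peaks within 200 bp of a Brg1-deficient H3K27Ac peak, at 2.56% (1.71 to 3.81%) of those between 1000 and 5000 bp, and at 22.5% (18.1 to 27.6%) of those at 20000 bp or more. H3K27Ac in at least 1 P0 library was called at 7.23% (5.73 to 9.08%) within 200 bp and at 5.23% (3.96 to 6.89%) between 1000 and 5000 bp, with intervals that overlapped, and at 15.4% (11.8 to 19.98%) at 20000 bp or more. Brg1 at P0 was called at 21.1%, 12.8% and 16.8% of these 3 sets. The farthest absent peaks and the nearest thus carried the promoter mark more often than those at 1000 to 5000 bp. At P21, 18.2% of the nearest and 18.5% of the farthest were called in both replicates, against 8.91% between 1000 and 5000 bp. With a peak in at least 1 P21 replicate the shares were 57.7%, 50.3% and 50.6%, so by this measure the farthest and those between 1000 and 5000 bp had overlapping intervals (44.7 to 56.0% and 47.3 to 53.8%).

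The state of absent peaks at other ages was read from libraries that the rule did not use. At P0, 58 absent peaks (1.44%) had an H3K27Ac peak in replicate 1 and 269 (6.68%) in replicate 2. Both P0 replicates had a peak at 53 absent peaks (1.32%, Wilson 95% interval 1.01 to 1.72%). Found peaks had one in both P0 replicates in 46.8% of cases (46.2 to 47.4%). At 3755 absent peaks (93.2%), neither P0 library had a peak, so nearly all of them were places without called acetylation at birth. A peak in at least 1 P0 library was called at 6.80% of absent peaks and 38.7% of all wild-type P12 peaks. At the 6152 wild-type P12 peaks absent from P14 replicate 2 and both Brg1-deficient libraries, the share was 4.94%. In both P0 replicates these 6152 had 1.01%. A low P0 share was thus not particular to absent peaks. The Wilson intervals cover counting error alone, and neighbouring peaks are not independent.

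In P14 replicate 1, 105 absent peaks (2.61%) had a peak, against 52.9% of found peaks and 32.3% of all wild-type P12 peaks. This library was from the same age and genotype as the one that the rule used.

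At P21 the share of absent peaks with a called peak was higher than at P0. The share with an H3K27Ac peak was 16.2% (15.1 to 17.4%) in replicate 1 and 51.2% (49.7 to 52.7%) in replicate 2, and 14.1% (13.1 to 15.3%) in both. Found peaks had 53.1%, 91.2% and 52.3%, and all wild-type P12 peaks had 37.2%, 71.5% and 35.8%. The first replicates of P0 and P21 had lists of like length (17588 and 18718 peaks), and they called 1.44% and 16.2% of absent peaks. Over all wild-type P12 peaks they called 28.6% and 37.2%. The 6152 wild-type P12 peaks that were absent from P14 replicate 2 and from both Brg1-deficient libraries gave 5.07% and 20.1% in the P21 replicates and 3.43% in both. In P0 replicate 1 the 6152 peaks gave 1.11%. A higher share at P21 than at P0 was thus not particular to absent peaks. Absent peaks were called at P21 more often than these 6152 peaks, and less often than found peaks. These classes were chosen by their calls in P14 replicate 2 and the Brg1-deficient libraries, so the order cannot be told apart from that choice. Without acetylation at P0 and with a peak in at least 1 P21 library there were 2019 absent peaks (50.1%), and 1736 (43.1%) had no peak at either age. Found peaks gave 34.8% and 5.22% for these states.

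Where they were called at P21, absent peaks were lower than found peaks and about as high as the median peak of these libraries. The median height at the 2063 with a P21 replicate 2 peak was 4.57, against 7.04 at found peaks and 4.75 over all peaks of that library. In P21 replicate 1 the medians were 4.90, 5.80 and 4.90. In P14 replicate 2, whose peaks the rule required, they were 4.32, 9.22 and 4.85.

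Brg1 was seldom called at absent peaks. A Brg1-FLAG peak overlapped 627 of them at P0 (15.6%, 14.5 to 16.7%), against 62.1% (61.5 to 62.7%) of found peaks, 23.1% of the peaks found in 1 Brg1-deficient library and 43.6% of all wild-type P12 peaks. The 6152 peaks absent from P14 replicate 2 and from both Brg1-deficient libraries had 11.1%. The Brg1 peaks at absent peaks had a median fold enrichment of 4.43, against 5.89 at found peaks and 4.28 over all Brg1-FLAG peaks. Most absent peaks thus had no called Brg1 peak at P0, and Brg1 at P12 was not measured.

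**Figure D2:**
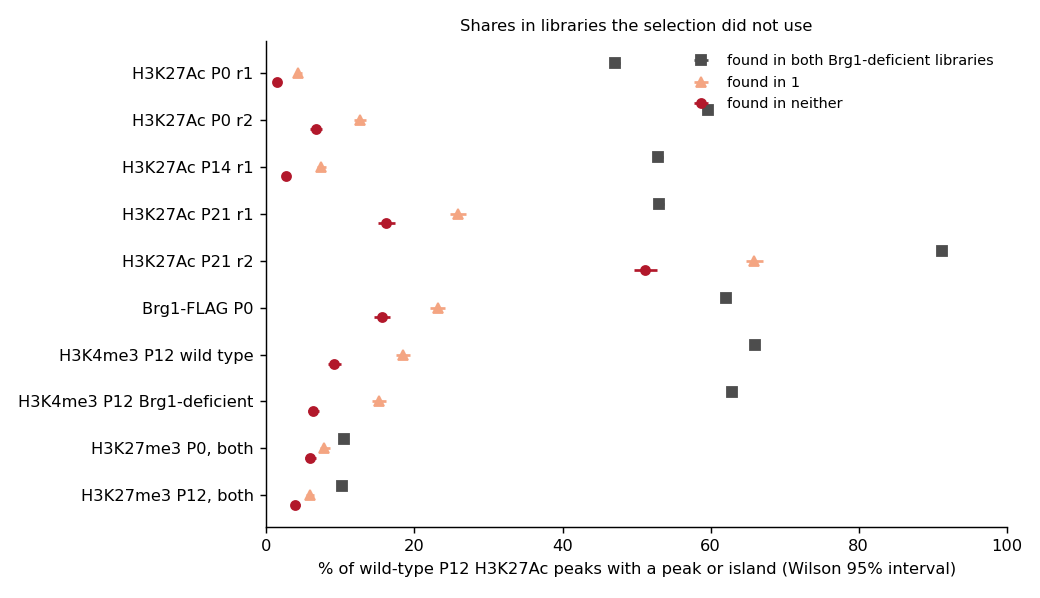
Percentage of H3K27Ac peaks of wild-type P12, among those that P14 replicate 2 also had, with a peak or island in each of 10 library sets on the y axis, and Wilson 95% intervals; circles are peaks found in neither Brg1-deficient library, triangles in 1 and squares in both. Circles lie left of squares in all 10 rows, from 1.44% against 47.1% (H3K27Ac P0 replicate 1) to 51.2% against 91.2% (H3K27Ac P21 replicate 2).

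Peaks of like height differed in the same way. Peaks were put into 4 bins of wild-type P12 height, cut at the quartiles of the absent peaks (3.59, 4.05 and 4.56). Within the lower 3 bins the median heights of absent and found peaks differed by less than 0.1. There, 17.9%, 15.7% and 16.4% of absent peaks had Brg1, against 46.0%, 47.3% and 46.1% of found peaks. In P0 replicate 2 the shares with H3K27Ac were 7.16%, 6.67% and 6.47%, against 37.6%, 39.1% and 39.2%. In P14 replicate 1 they were 2.09%, 1.99% and 2.04%, against 13.9%, 16.6% and 18.6%. In P21 replicate 2 they were 46.7%, 45.8% and 49.2%, against 76.7%, 74.9% and 79.6%. Found peaks were longer in these bins as well, with medians of 348 to 414 bp against 263 to 294 bp. The bins matched height in the wild-type P12 library alone. In P14 replicate 2 the medians over all heights were 4.32 at absent and 9.22 at found peaks. Found peaks also had to be called in both Brg1-deficient libraries, so these shares cannot be told apart from the rule. When only the summit of the wild-type peak was used, so that its length played no part, 11.8% of absent and 53.2% of found peaks had Brg1, 0.844% and 42.9% had H3K27Ac in both P0 replicates, and 10.03% and 44.9% in both P21 replicates.

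**Figure D3:**
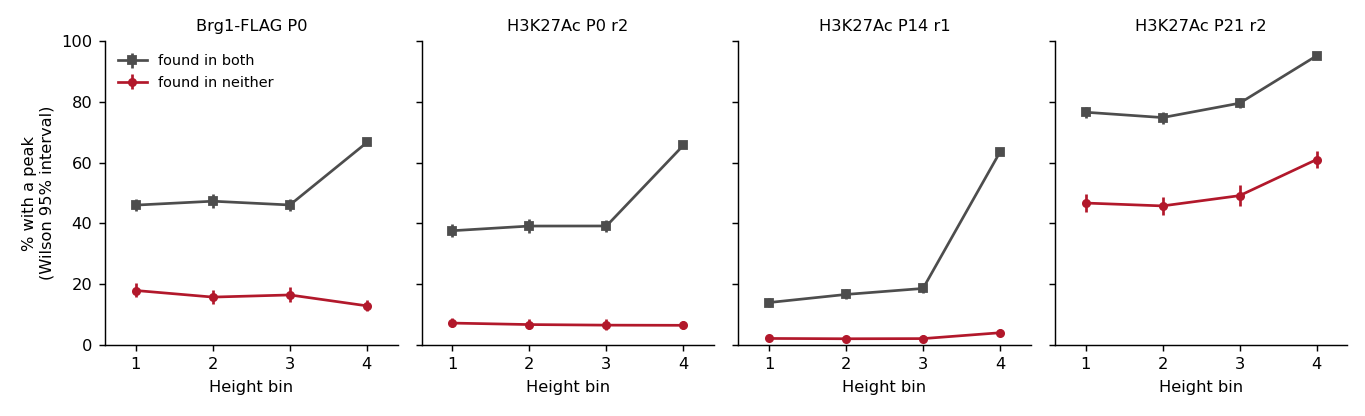
Percentage with a peak in the Brg1-FLAG P0, H3K27Ac P0 replicate 2, H3K27Ac P14 replicate 1 and H3K27Ac P21 replicate 2 libraries, in 4 bins of wild-type P12 height, with Wilson 95% intervals; circles are peaks found in neither Brg1-deficient library and squares peaks found in both. In each bin and library the circles lie below the squares, and bin 4 has no upper limit, so its squares are higher peaks (median 7.69 against 4.97).

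Absent peaks with and without Brg1 differed from each other. The 627 with a Brg1 peak and the 3402 without had almost the same height (median 4.02 and 4.05) and length (289 and 292 bp). With Brg1, 27.9% (24.5 to 31.5%) had H3K27Ac in at least 1 P0 library, against 2.91% (2.40 to 3.53%) without. At P21 the order was the other way round, with 5.10% (3.64 to 7.12%) called in both replicates against 15.8% (14.6 to 17.1%). H3K4me3 in wild-type P12 retina was called at 22.0% with Brg1 and 6.85% without, and H3K27me3 in both P0 libraries at 13.2% and 4.61%. Found peaks with Brg1 likewise had more H3K27Ac in at least 1 P0 library (82.6% against 22.9%), more H3K4me3 (83.2% against 37.7%) and more H3K27me3 (13.1% against 6.17%) than found peaks without it. Their P21 acetylation in both replicates was 54.1% with Brg1 and 49.4% without, the opposite order to absent peaks. Found peaks with and without Brg1 also differed in height (median 7.83 and 5.36).

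The 53 absent peaks with H3K27Ac in both P0 replicates were a small group of their own. Brg1 was called at 40 of them, H3K4me3 in wild-type P12 at 27, and H3K27Ac in both P21 replicates at 3. In at least 1 P21 replicate, 32 of the 53 (60.4%, 46.9 to 72.4%) had a peak, against 53.8% (52.2 to 55.4%) of absent peaks with no P0 peak, with intervals that overlapped. Of the 570 absent peaks with acetylation in both P21 replicates, 32 (5.61%) had Brg1.

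A comparison of H3K27Ac heights at P21 (2 libraries) and P0 (2 libraries) was fitted with limma over the wild-type P12 peaks that had a peak in at least 2 of these 4 libraries. This left 702 of the 4029 absent peaks, and 3327 were not tested. With a Benjamini-Hochberg adjusted p-value under 0.05, 435 absent peaks were higher and 18 lower at P21, and over all 25329 peaks tested 27.6% were higher and 2.16% lower. With an unadjusted p under 0.05 the counts were 555 and 24, against 35.1% and 4.64% of all peaks tested. All absent peaks called at the adjusted threshold had a peak in both libraries of one age and in neither of the other. Of the 554 absent peaks with both P21 libraries alone, 435 were called, and of the 21 with both P0 libraries alone, 18 were. Over all peaks, 6838 of 8136 with both P21 libraries alone were called. The filter thus fixed the direction of these calls, and the counts say nothing particular about absent peaks. Without any 1 of the libraries the number of absent peaks called higher was between 0 and 5.

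H3K4me3 was uncommon at absent peaks. It overlapped 371 (9.21%, 8.35 to 10.1%) in the wild-type P12 library and 254 (6.30%, 5.59 to 7.10%) in the Brg1-deficient library. Found peaks gave 66.0% and 62.9%, and all wild-type P12 peaks 43.5% and 40.6%. The 6152 peaks absent from P14 replicate 2 and from both Brg1-deficient libraries gave 4.71% and 3.36%. A low H3K4me3 share was thus not particular to absent peaks. Over the wild-type ages the share was 6.65% and 7.57% at P0, 7.10% and 8.04% at P14, and 14.4% and 7.10% at P21, where the first P21 list was the longest of this mark (24124 peaks). Most absent peaks therefore lay outside regions with the promoter mark at all ages, and 634 (15.7%) met it in at least 1 library.

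A part of the absent peaks with H3K4me3 carried H3K27me3 at birth. Of the 371, 121 (32.6%, 28.0 to 37.5%) met an H3K27me3 island in both P0 libraries. Found peaks with H3K4me3 gave 14.4% (13.9 to 14.96%), and absent peaks without H3K4me3 gave 3.25%. These shares were not matched for height or length. Found peaks with H3K4me3 had medians of 7.93 and 788 bp, against 4.02 and 266 bp for the 371. Brg1 was called at 138 of the 371 (37.2%), against 78.3% of found peaks with H3K4me3. H3K4me3 was read here at P12 and H3K27me3 at P0.

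H3K27me3 was less frequent at P14 and P21 than at P0, over absent peaks and over all wild-type P12 peaks. The titles of the P12 H3K27me3 libraries, of both genotypes, carry another antibody label than those of P0, P14 and P21. For P12 against the other ages, age and antibody label therefore cannot be told apart. Both P0 libraries had an island at 5.96% of absent peaks (5.27 to 6.73%), both wild-type P12 libraries at 3.90% (3.34 to 4.54%), both P14 libraries at 3.23% and both P21 libraries at 3.003%. The single Brg1-deficient P12 library had one at 4.34% (3.76 to 5.02%), and the wild-type P12 libraries 1 by 1 at 5.16% and 4.69%. Islands were not more frequent at absent peaks in the Brg1-deficient library than in either wild-type P12 library. Over all wild-type P12 peaks, the shares were 8.52% in both P0 libraries, 7.77% in both at P12, 5.73% in both at P14 and 6.01% in both at P21. The Brg1-deficient library gave 9.31% over all these peaks, and the wild-type P12 libraries 1 by 1 gave 9.21% and 9.60%. The share at absent peaks was below that of all peaks in each case. The number of islands and the length they cover differ between libraries, from 96.7 to 213 Mb, and P14 replicate 2 listed none on chromosome X.

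H3K4me3 heights were compared between the wild-type and the Brg1-deficient P12 library without a test, since there was 1 library each. Heights of the Brg1-deficient library were multiplied by 1.52 to bring the shared peaks to the same median. Of the 272 H3K4me3 peaks that met an absent peak and were called in both libraries, 8 (2.94%) were at least 2-fold lower and 13 (4.78%) at least 2-fold higher in the Brg1-deficient library, close to the 2.51% and 5.09% over all 18546 shared peaks. Of the 372 wild-type H3K4me3 peaks that met an absent peak, 100 (26.9%) had no peak in the Brg1-deficient library, against 18.8% of all. Where an H3K4me3 peak met an absent peak and no found peak, 98 of 238 (41.2%) had none, and these 238 were low, with a median height of 7.64 against 27.7 over all.

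The highest absent peaks were reproduced at other ages. The highest, chr9:72274634-72277103, had a height of 14.1 in wild-type P12, 15.4 and 20.99 at P14, 17.1 and 13.1 at P21, 4.35 in P0 replicate 2 and no peak in P0 replicate 1. It had a Brg1 peak of 4.22 at P0, and no Brg1-deficient H3K27Ac peak within 9261 bp. Next to it, chr9:72273751-72274495 had a height of 8.56 and overlapped the same broad P14 and P21 peaks. A height at another age is that of the whole overlapping peak, so both loci share these values.

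The second highest, chr14:69877616-69881604, was also the longest (3989 bp). It had a height of 9.95 in wild-type P12, 7.71 and 12.9 at P14, and 11.3 and 11.9 at P21, with no peak at P0 and none for Brg1. The third, chr2:118379084-118380394, was the one of the 10 highest with a peak in both P0 libraries. Its heights were 5.90 and 8.24 at P0, 9.76 at P12, 12.1 and 10.7 at P14, and 5.63 and 7.24 at P21. It also lay on an H3K4me3 peak in each of the 8 H3K4me3 libraries, with 25.5 in wild-type and 13.0 in Brg1-deficient P12 retina.

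Most of the next loci were also called at P14 and P21. The peak chr18:63783300-63784714 had 9.09 in wild-type P12, 4.87 and 10.4 at P14, and 7.65 and 8.46 at P21, and the nearest Brg1-deficient peak was 66407 bp away. The peak chr5:137362199-137363965 had 8.95, then 8.87 and 10.2, and 8.48 and 6.61. Farther along the same chromosome, chr5:137370226-137371340 had 8.30 at P12, a peak of 5.42 in P14 replicate 2 alone, and 5.59 and 6.62 at P21. None of these 3 had a peak at P0 or a Brg1 peak. The peak chr4:133942931-133943475 had 8.56 at P12, 7.61 and 5.93 at P14, and 6.90 and 3.27 at P21, and it was the one of the 8 highest where H3K4me3 was called in wild-type P12 (9.68) and not in Brg1-deficient retina.

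**Figure D4:**
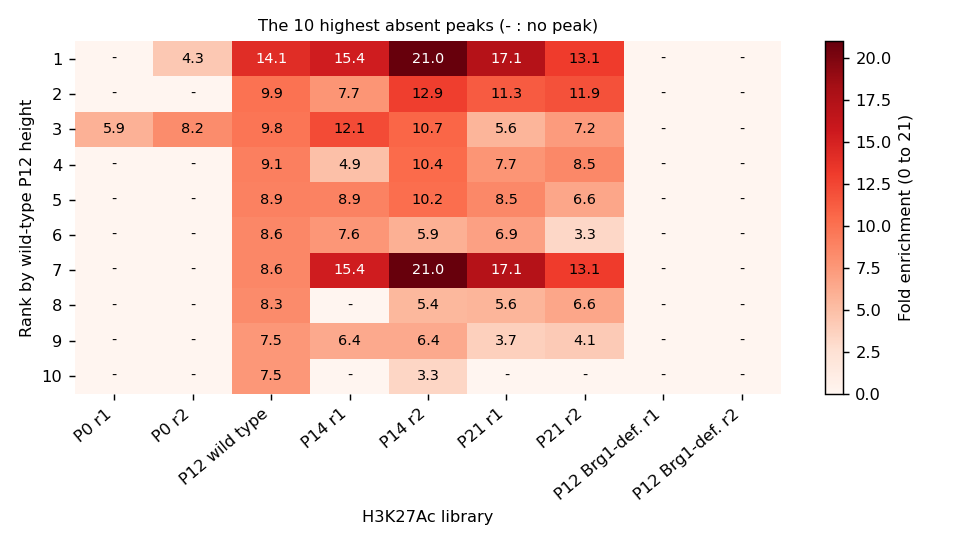
Fold enrichment of the overlapping H3K27Ac peak in each library (columns) at the 10 absent peaks with the greatest wild-type P12 height (rows), with a dash where no peak was called. Of the 10, 1 has a peak in both P0 libraries and 8 have peaks in P14 replicate 1, and the columns of the Brg1-deficient libraries and the wild-type P12 and P14 replicate 2 columns are set by the rule.

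Among the 20 highest absent peaks, 10 had a peak in P14 replicate 1, 14 in both P21 replicates and 17 in at least 1. A P0 peak was present at 2, a Brg1 peak at 1, and H3K4me3 in wild-type P12 at 3. Some of the 20 were less well reproduced. The peak chr5:24247170-24247952, with 7.49 at P12, had 3.29 in P14 replicate 2 and no peak in P14 replicate 1 or at P21, and chr4:140079385-140079733 and chr3:30644646-30645076 had none there either.

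Peaks in P14 replicate 1 and in both P21 libraries, which the rule did not use, were found together at 62 absent peaks (1.54%, 1.20 to 1.97%), against 42.0% of found peaks. These 62 had a median height of 4.56 and a median length of 453.5 bp. Brg1 was called at 3 of them, P0 acetylation in at least 1 library at 3, and H3K4me3 in wild-type P12 at 7. Of the 62, 29 lay more than 1000 bp from a Brg1-deficient peak.

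Absent peaks were spread over all chromosomes but Y, where wild-type P12 had 1 peak. Between 7.14% (chromosome 16) and 9.91% (chromosome 2) of the peaks of each autosome were absent. On the X chromosome, 25 of 644 were (3.88%). Joined where they lay within 12500 bp of each other, the absent peaks formed 2905 groups, of which 2214 were single peaks. Most lay alone among other wild-type P12 peaks, with 2937 runs of 1 absent peak, 398 runs of 2 consecutive ones and 1 run of 7. A further 254 groups held 3 or more and together 941 absent peaks (23.4%), and 8 groups held 7 or more.

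On chromosome 9, 11 of the 18 wild-type P12 peaks in chr9:72241016-72283180 were absent, the highest absent peak among them, and 1 was a found peak. Wild-type retinae had 5 and 17 peaks there at P14 and 7 and 20 at P21, with 0 and 1 at P0. The Brg1-deficient libraries had 2 peaks each. The H3K4me3 peak inside it, chr9:72255784-72257906, had a height of 23.2 in wild-type P12 and 4.08 in Brg1-deficient P12 (6.21 after scaling, log2 ratio -1.90). The same peak had 10.1 and 10.8 at P0, 17.4 and 12.8 at P14, and 29.9 and 14.75 at P21. The value in the 1 Brg1-deficient H3K4me3 library lay below all 7 wild-type values as deposited, and the group was chosen for its absent H3K27Ac. Another H3K4me3 peak at its flank, chr9:72285722-72286904, had 49.6 and 19.6 (log2 ratio -0.73 after scaling).

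On chromosome 14 there were 3 such groups. In chr14:69872787-69886245, 7 of 9 wild-type P12 peaks were absent and no Brg1-deficient library had a peak, while P14 had 6 and 9 peaks, P21 had 3 and 10, and P0 had 0 and 1. In chr14:46264931-46275909, 8 of 9 were absent, again with 0 Brg1-deficient peaks. P14 replicate 1 also had 0 peaks there, replicate 2 had 10, and P21 had 6 and 8. The last absent peak of this stretch, chr14:46274556-46275909, overlapped a strong H3K4me3 peak, chr14:46274623-46278496, that was called in both genotypes. This H3K4me3 peak had 73.6 in wild-type and 39.3 in Brg1-deficient P12 retina (log2 ratio -0.30 after scaling). A Brg1-deficient H3K27Ac peak lay 320 bp from that absent peak, outside the stretch. In chr14:48819574-48855154, 7 of 9 were absent, with 1 and 3 Brg1-deficient peaks.

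The other 4 groups held acetylation in Brg1-deficient retinae as well. In chr6:91604310-91657302, 13 of 25 wild-type P12 peaks were absent and 7 were found peaks, with 9 peaks in each Brg1-deficient library. In chr12:87778605-87835728, 12 of 37 were absent, in chr1:89662078-89693235 9 of 29, and in chr11:57525535-57552047 7 of 14. The Brg1-deficient libraries had between 7 and 23 peaks in these. Around the 8 groups, within 10 kb, wild-type P12 had 19 H3K4me3 peaks, of which 5 had no Brg1-deficient peak. Of the 14 called in both libraries, 6 were lower and 8 higher in the Brg1-deficient library after scaling, with a median log2 ratio of 0.17. The lowest ratio was the -1.90 on chromosome 9. The highest, 3.16 on chromosome 1, was at a short wild-type peak that met the same Brg1-deficient peak as its stronger neighbour, whose ratio was -0.90.

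**Figure D5:**
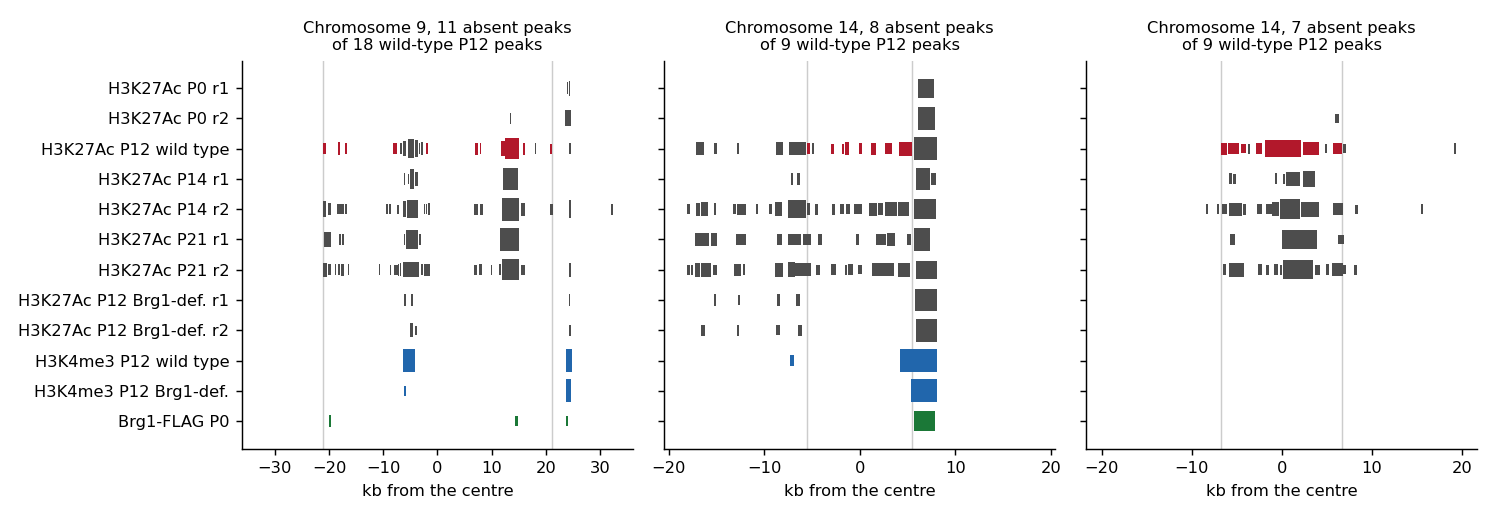
Peaks of 12 libraries (rows) around 3 groups of absent peaks, by distance in kb from the centre of the group; the width of a bar is the length of the peak and its thickness rises with fold enrichment up to 15. Absent peaks are red, other H3K27Ac peaks grey, H3K4me3 blue and Brg1-FLAG green, and grey lines mark the ends of the group; the Brg1-deficient H3K27Ac rows hold 2, 0 and 0 peaks between the lines.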

How the data were processed

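ChIP-Seq was analysed from 27 libraries with a peak list each, and 8 input libraries were not analysed here. The deposited H3K27Ac, H3K4me3 and Brg1-FLAG lists give, per library and not on pooled replicates, peak positions, summits, the fold enrichment over background (a ratio), p-values and q-values as −log10, and a deposited score that was not used. The H3K27me3 lists by the authors give island positions and a number that was not used. Submitters' processing notes name mm9, BWA 0.5.9-r26, Picard 1.65, MACS2 2.0.9, bedtools 2.17.0 and SICER 1.1. Fold enrichment depends on the depth of its library.

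Overlaps (at least 1 bp) came from scripts in Python 3.11.15 (pandas 2.3.3, numpy 2.4.6) and were checked against bedtools 2.31.1 for 27 libraries (0 calls differed). Wilson intervals came from scipy 1.17.1 and figures from matplotlib 3.10.9. Heights at P21 and P0 were fitted with limma 3.58.1 in R 4.3.3 on log2(height + 3.06), the pseudocount being the 5th percentile, after scaling to equal medians over 7422 peaks called in all 4 libraries. A peak with no call was given 0. The fit was tested on heights simulated from the 7422 peaks called in all 4 libraries, and it recovered 199 of 200 shifted peaks with 9 false calls. Only 3 absent peaks were among the 7422. The simulation therefore does not bear on absent peaks given 0 at one age. The paper calls its histone mark libraries of a stage biological duplicates, while labels do not say whether replicates were separate animals. The p-values measure the spread between libraries, part of which may be technical.

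The peaks and comparisons were chosen with earlier results of these data known. Loci named are the 20 highest absent peaks, with examples taken from them after their values were seen, and the groups with 7 or more. Genes and sequence were planned but are not reported, and the tissue was not checked against marker genes, since no mm9 genome or annotation was used.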

Additional observations from a re-analysis of the deposited data

How the results depend on the processing

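The number of absent peaks was 2433 with equal numbers of strongest peaks per list, 636 with the strongest 50% of wild-type P12 peaks, 2287 with no Brg1-deficient peak within 500 bp and 10181 with no P14 peak required. It lay between 118 and 8241 without 1 library of the rule. Median height was 5.36 with the strongest 50%. The share with H3K27Ac in both P0 libraries was 1.81% with equal numbers and 1.89% with the strongest 50%, between 1.44% and 6.68% without 1 replicate or library, and 0.844% by summit, an alternative chosen after seeing the data. The Brg1 share was 13.8% with 50% overlap in the rule, 13.1% with the strongest 50%, 12.9% with the 500 bp margin, 12.9% with no P14 peak required, 11.96% with 50% overlap for Brg1 alone, 11.8% by summit, and between 8.47% and 19.9% without 1 library. The share in both P21 libraries was 12.1% with 50% overlap, 19.1% with equal numbers, 24.8% with the strongest 50%, 12.1% with the 500 bp margin, 7.67% with no P14 peak required, 10.6% with 50% overlap for P21 alone, 10.03% by summit, and between 14.2% and 59.3% without 1 library.

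Between P21 and P0, limma called 0 absent peaks in either direction with a peak required in all 4 libraries (3 absent peaks tested, with 235 higher and 73 lower over all peaks). It called 0 absent peaks and 0 peaks over all, higher or lower, with a peak required in 1 library, where 555 absent peaks were higher and 24 lower at an unadjusted p under 0.05. Without 1 library, between 0 and 5 absent peaks were higher and between 0 and 44 lower, and over all peaks between 0 and 932 higher and between 0 and 5772 lower; the last of each pair was without P21 replicate 2. With the replicate block, 550 absent peaks were higher and 18 lower, and 1419 of all peaks lower. Replicate numbers did not pair the samples (correlation of replicate differences between P0 and P21 -0.02). The cause of these changes was not tested. Depth limits every absence, since weak peaks are called only with enough reads.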
